A study of Mus musculus with 12 samples.

Results

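Imprinted genes are expressed mainly from the copy inherited from 1 parent, and 44 of them were followed here in the adult liver of mice whose mothers had lacked vitamin D. They were taken as a list of known imprinted genes of the mouse, as candidates for programming by prenatal diet, and they are 44 of the 52636 annotated genes that were counted. The genes lie in 19 imprinted domains, with 16 of the 44 on chromosome 7. By common knowledge 24 of them are expressed from the paternal and 20 from the maternal allele where they are imprinted. For some, such as Ube3a, Copg2, Blcap and Gnas, this is known chiefly from brain or a few other tissues, and the names paternally and maternally expressed do not say that a gene is imprinted in liver. The mice were of 1 inbred strain, so the alleles of a gene carry the same sequence and the counts are totals over both.

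The livers came from male C57Bl/6J mice of the F1 generation at 16 weeks of age. In VDD-F1 mice the mothers ate a diet with no vitamin D before mating and through pregnancy, with calcium gluconate added. In VDS-F1 mice the mothers ate a vitamin D sufficient diet. All dams received the sufficient diet after delivery, all offspring received it after weaning, and the fathers ate a control diet, so the groups differ in the maternal diet and not in their own diet as adults. The study names as a limitation that the offspring also met low vitamin D in the first weeks of life. Exposure before and after birth therefore cannot be told apart. RNA from the left lateral lobe was sequenced from 6 mice of each group, and each mouse gave 1 library of its own. The litters of the mice are not given in the sources used here, so the p-values measure the spread between mice and cannot take shared mothers into account.

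Imprinting is set in the germ line, where a control region in each domain is methylated in either the egg or the sperm and keeps that mark through embryonic development. Noncoding RNAs transcribed from several of these regions silence neighbouring genes on the same chromosome. Many imprinted genes act on growth in the fetus and placenta, and a number of them are turned down in the liver soon after birth. Others, such as amino acid transporters and signalling subunits, continue in hepatocytes.

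The libraries held 25897868 to 36403413 fragments, of which 14275793 to 20815066 were counted on the gene's strand. Hepatocyte markers summed to 102755 to 131178 counts-per-million (CPM) in the 12 mice, as the tissue label says. In VDS6, 11.1% of fragments mapped but overlapped no annotated exon on the counted strand, against 2.52% to 4.94% in the other 11 mice. A liver weight was recorded for VDS3 to VDS6 and VDD4 to VDD6, 7 mice in all, but not for VDS1, VDS2 and VDD1 to VDD3. Values within these sets are given for a number of genes. Markers of stellate cells and fibroblasts, the collagen-producing cells of the liver, had a positive log2 fold change (VDD-F1 minus VDS-F1) for 12 of 12 genes, 7 of them with an unadjusted p under 0.05, a level at which 9.55% of all genes tested were higher and 6.29% lower in VDD-F1. Their summed level ran from 348 to 1125 CPM in VDD-F1 and from 327 to 539 CPM in VDS-F1. Proliferation markers were higher for 8 of 8 genes at that level, with sums of 8.96 to 84.1 and 6.53 to 9.36 CPM, and VDD2 held the highest sum of both lists. Of 5 cholangiocyte markers, 3 were higher at that level and none lower, with sums of 23.9 to 115.6 and 27.8 to 51.5 CPM. Of 9 macrophage markers 2 were higher and 2 lower, of 10 endothelial markers 1 was higher and 2 lower, of 10 hepatocyte markers 2 were lower, of 2 adipocyte markers 1 was higher, of 2 pancreas and gut markers 1 was lower, and of 2 lymphocyte markers 0 passed. The part of these cells in the results for imprinted genes was not tested. In RNA from a whole lobe, fewer cells of a type and less RNA per cell cannot be told apart.

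Promoter sequence is shown for 3 of the imprinted genes that the results turn on, as the 250 bases upstream of a RefSeq transcript start on GRCm38.p6, read 5′ to 3′ on the gene's strand. CG dinucleotides, the letters that carry imprint methylation, are in capitals. Methylation itself was not measured.
Mest (chr6:30737800-30738049, plus strand): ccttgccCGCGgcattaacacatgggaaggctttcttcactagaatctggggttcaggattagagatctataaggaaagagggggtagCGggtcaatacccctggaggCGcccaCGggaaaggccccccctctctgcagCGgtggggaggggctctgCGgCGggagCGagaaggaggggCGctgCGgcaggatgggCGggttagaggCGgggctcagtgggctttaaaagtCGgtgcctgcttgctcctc
Slc38a4 (chr15:97055957-97056206, minus strand): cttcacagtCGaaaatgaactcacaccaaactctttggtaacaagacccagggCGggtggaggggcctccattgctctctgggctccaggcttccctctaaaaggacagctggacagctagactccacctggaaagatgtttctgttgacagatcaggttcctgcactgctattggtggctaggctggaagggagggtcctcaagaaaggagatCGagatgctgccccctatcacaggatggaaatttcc
Igf2 (chr7:142661272-142661521, minus strand): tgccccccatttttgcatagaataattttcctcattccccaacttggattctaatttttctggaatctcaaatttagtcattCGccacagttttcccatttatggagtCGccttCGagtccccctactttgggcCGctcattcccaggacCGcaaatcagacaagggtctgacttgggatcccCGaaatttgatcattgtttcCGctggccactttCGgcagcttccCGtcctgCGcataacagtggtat
The Mest window holds 14 CG, the Igf2 window 10 and the Slc38a4 window 3. Of all 32851 windows in the table, 29.4% hold at least as many as Mest, 37.8% as Igf2 and 71.0% as Slc38a4. Each window shown is 1 of several for its gene, and Mest has 3 windows with 7 to 14 CG. Igf2 has 4 windows with 1 to 22 CG and Slc38a4 has 3 with 3 to 5. The hexamer TGCCGC, read on both strands and so also as GCGGCA, is the methylated motif known to be bound by the imprint-protecting protein ZFP57. With overlapping matches counted separately, it stands 2 times in the Mest window shown, at bases 9 and 184, and not in the Slc38a4 or Igf2 window shown. The table matched 35 of the 44 genes by symbol, with 54 windows, and 8 of those windows (14.8%) hold the hexamer, against 8.68% of all windows. They belong to Copg2, Mcts2, Meg3, Mest, Plagl1, Zdbf2 and Zim1, and 2 of the 8 are Mest windows that start 3 bases apart and hold the same matches. The hexamer itself contains a CG, and the median window held 10 CG for the imprinted genes and 6 over all windows. The part of this in the 2 shares was not tested. A match of letters is a description and does not show a bound site.

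Detection in the adult liver was counted first. The study's methods set the minimum at a mean of 12 counts per library, and 29 of the 44 imprinted genes were kept by it and 15 were not. The 29 comprise 15 paternally and 14 maternally expressed genes. A mean of at least 1 count kept 36 genes and a mean of at least 50 kept 22, and the count that ignores the strand also kept 29. With all mice none of the 29 reached the minimum in 1 diet group alone, but without VDS6 H19 and Igf2 reached it in VDD-F1 alone, with a mean of 18.2 and 15.2 counts there and 6.2 and 9.4 in VDS1 to VDS5.

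Levels between genes were compared as transcripts-per-million (TPM), which divide each count by the length of the gene's exons. TPM is scaled to the whole library, where CPM values here also carry the TMM scaling between libraries. Slc38a4, a sodium-coupled transporter of neutral amino acids, stood far above the rest at 646 ± 175 TPM (SD, n = 12), with a range of 349.8 to 909.6. It made up 64.9% of the summed TPM of the 44 genes, between 59.5% and 68.5% in each mouse, and lay at the 99.0th percentile of the 12453 genes with the minimum count. By TPM the level was lowest in VDS5 and highest in VDD6, whereas by TMM-scaled CPM the same VDS5 was the highest VDS-F1 mouse, so levels are compared between mice by CPM.

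**Figure D1:**
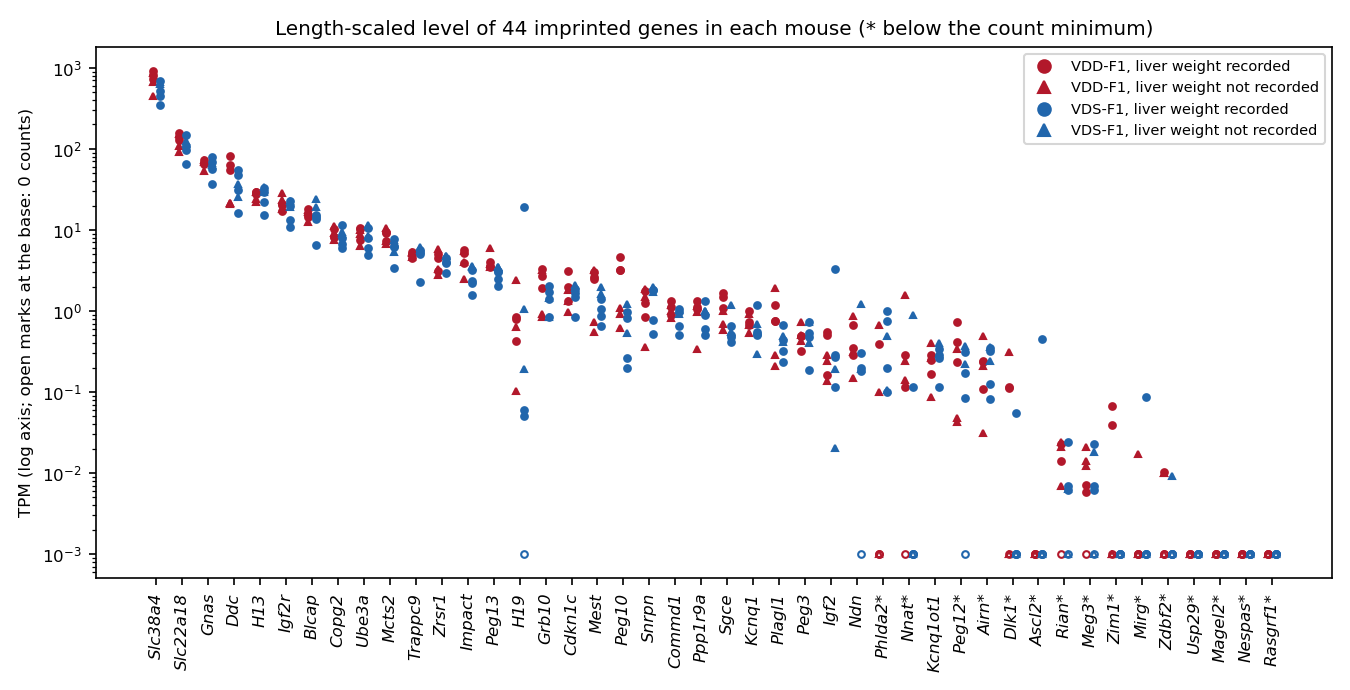
TPM of the 44 imprinted genes in each of 12 mice on a log axis, ordered by mean, with VDD-F1 in red and VDS-F1 in blue, circles for the 7 mice with and triangles for the 5 mice without a recorded liver weight, open marks for 0 counts and an asterisk for genes below the count minimum. Slc38a4 lies between 349.8 and 909.6 TPM in all mice, 20 genes have a mean over 1 TPM, and the H19 mark at 19.3 TPM is VDS6.

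A further 6 genes had a mean over 10 TPM. Slc22a18, an organic cation transporter-like protein of the Kcnq1 domain, had 119.8 ± 27.7 TPM and Gnas, the stimulatory G protein alpha subunit, 64.4 ± 11.3 TPM. Ddc, the aromatic L-amino acid decarboxylase, had 39.7 ± 20.8 TPM, the widest spread of these genes relative to its mean. H13, the signal peptide peptidase, had 27.0 ± 5.18 TPM, Igf2r, the receptor that carries IGF2 to lysosomes, 19.7 ± 4.62 TPM, and Blcap 15.6 ± 4.19 TPM. Next to these, Copg2, a coat protein of Golgi vesicles, had 8.72 ± 1.68 TPM and Ube3a, a ubiquitin ligase, 8.57 ± 2.13 TPM, and these neighbours do not differ beyond their spread. The levels depend on the length used. By the longest transcript Gnas had 159 TPM and stood above Slc22a18 at 114 TPM, Ddc had 76.7 TPM, H13 40.3 TPM and Ube3a 15.6 TPM, which put Ube3a above 10 TPM and above Copg2 at 9.85 TPM.

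A number of genes known for roles in growth were low. Igf2, the fetal insulin-like growth factor, had a median of 0.259 TPM and H19, the noncoding RNA next to it, 0.527 TPM. Plagl1, a zinc finger transcription factor, had 0.468 TPM and Peg3, another zinc finger protein, 0.490 TPM. Cdkn1c, the cell cycle inhibitor p57, had 1.73 TPM and Grb10, an adaptor that restrains insulin and IGF receptors, 1.57 TPM. These medians lay under 2 TPM, where the median of Slc38a4 was 667 TPM.

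Below the minimum stayed 15 genes. The whole Dlk1-Meg3 domain was among them, with Dlk1, a membrane ligand of the Notch type, at 0 to 14 counts per library, and the noncoding RNAs Meg3, Rian and Mirg at no more than 4, 6 and 6 counts. The 14 counts of Dlk1 were in VDD2, and the other libraries with a count were VDD4 (5), VDD6 (6) and VDS6 (3). Nnat, neuronatin, had 23 counts in VDD2 and 15 in VDS1 and at most 4 in the other 10 mice. Peg12 had 0 to 15 counts and Airn, the noncoding RNA that silences Igf2r on the paternal chromosome, 1 to 14 counts. Airn was the only gene of the 15 with a count in all 12 libraries.

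Among the placental genes, Phlda2, which limits placental growth, had at most 9 counts, and Ascl2, a trophoblast transcription factor, had 7 counts in VDS6 and 0 in the other 11 mice. Zim1 had 5 counts in VDD5, 3 in VDD6 and 0 elsewhere, and Zdbf2 had at most 1. Usp29, Magel2, Nespas and Rasgrf1 had 0 counts in all 12 libraries. Over all counts of the 12 libraries this allows up to 3 counts, or 0.0148 CPM, for each, by counting error alone. These levels were too low for a comparison of the diets.

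The spread between mice was described by the coefficient of variation (CV, the SD over the mean of CPM). The 29 genes had a median CV of 0.233 in the VDD-F1 and 0.223 in the VDS-F1 mice, where all genes had 0.184 and 0.163. The VDD-F1 group had the larger CV for 17 of the 29 genes and for 60.6% of all genes. Slc38a4, at 0.110 and 0.0508, and Ube3a, at 0.0864 and 0.0950, varied little. Peg10 had 0.700 and 0.451 and H19 0.778 and 2.31.

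The diets were then compared, which asks whether imprinted genes carry a lasting difference after maternal vitamin D deficiency. No imprinted gene met the study's thresholds for a differentially expressed gene (a log2 fold change beyond 1 in either direction with an adjusted p under 0.05) by the quasi-likelihood test of edgeR, adjusted over 12453 genes by the Benjamini-Hochberg method. The count was 0 of 29, where 0.0402% of all genes were called, and 0 of 29 passed an adjusted p under 0.05 alone. At an unadjusted p under 0.05 there were 5, all higher in VDD-F1, where 9.55% of all genes were higher and 6.29% lower at that level. The 5 genes, Impact, Peg10, Sgce, Slc38a4 and Peg13, are all of the paternally expressed kind. The 2 groups overlapped for all 29 genes, where 0.61% of all genes lay without overlap higher and 0.57% lower in VDD-F1.

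In the medians of signed values, where higher and lower genes cancel, the imprinted genes differed little as a whole. The median log2 fold change (VDD-F1 minus VDS-F1) was -0.01 over the 29 genes and 0.00 over all genes tested. It was 0.23 over the 15 paternally expressed genes, 10 of which were positive, and -0.07 over the 14 maternally expressed genes, 4 of which were positive. Genes of 1 domain share control regions and are not replicates, and the difference between these medians was not tested.

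**Figure D2:**
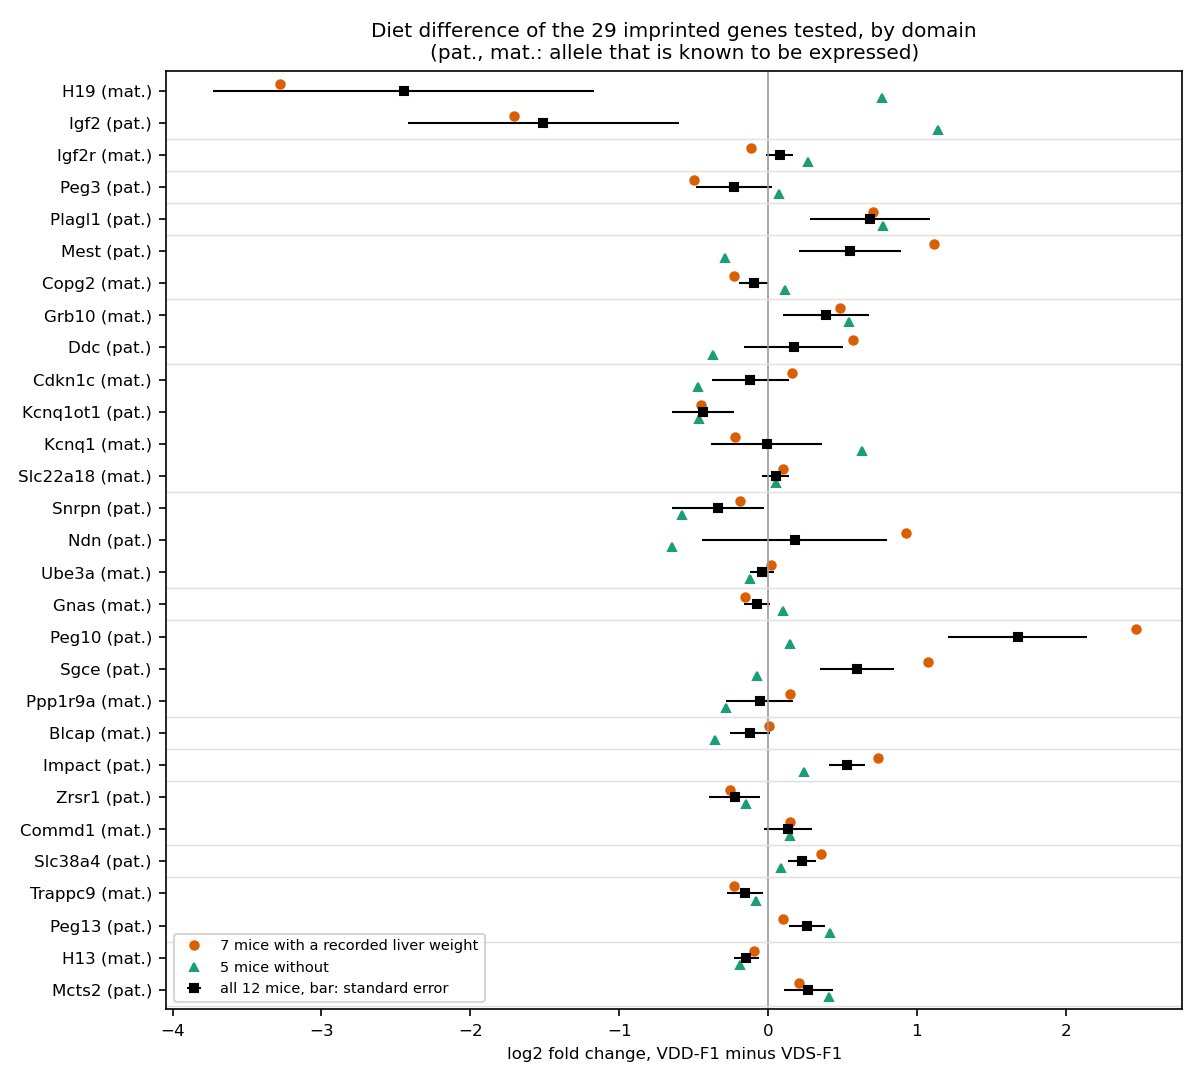
Log2 fold change (VDD-F1 minus VDS-F1) of the 29 imprinted genes with the minimum count, grouped by domain, with black squares for all 12 mice and their standard error, orange circles for the 7 mice with and green triangles for the 5 mice without a recorded liver weight. Peg10 lies at 1.68 in all mice, at 2.47 in the first set and at 0.15 in the second, and H19 and Igf2 change side between the sets.

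Impact, which restrains the amino acid sensor GCN2 by binding its activator, had the smallest p of the 29 imprinted genes tested in edgeR. Its CPM in VDD1 to VDD6 was 10.4, 11.6, 8.59, 10.7, 13.1 and 13.1, and in VDS1 to VDS6 it was 8.39, 8.91, 6.53, 7.59, 7.57 and 7.80. Of the 6 VDD-F1 mice, 5 lay above every VDS-F1 mouse, and VDD3 lay below VDS2. This gave a log2 fold change of 0.53 ± 0.12 (SE) with an adjusted p of 0.0855 in edgeR. Over 25 alternative settings the adjusted p ran from 0.00617 to 0.999 and was under 0.05 in 5 of them, with the gene higher in VDD-F1 in all 25. Among these, DESeq2 gave an adjusted p of 0.00899, where 4.05% of all genes passed, and voom with sample quality weights 0.0174, where 4.74% did. Without VDD3 edgeR gave 0.036, where 1.12% passed.

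Peg10, a gene derived from a retrotransposon that the placenta needs, showed the largest fold change upward. Its CPM in VDD1, VDD2 and VDD3 was 2.02, 2.98 and 4.14, and in VDD4, VDD5 and VDD6 it was 11.3, 15.1 and 9.42. In VDS1 to VDS6 it was 3.70, 1.77, 2.96, 3.02, 1.25 and 1.22. VDD4 to VDD6, the VDD-F1 mice with a recorded liver weight, stood apart from all others, and the first 3 VDD-F1 mice lay in or just above the range of VDS-F1. The log2 fold change was 1.68 ± 0.47 with an adjusted p of 0.113 in edgeR. DESeq2 gave an adjusted p of 0.0103 and so a call by the study's thresholds, which 2.03% of all genes met. So did edgeR without VDD1, at an adjusted p of 0.0314, where 2.09% of all genes met those thresholds. Impact also passed the adjusted p there, at 0.039, with 3.37% of all genes.

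Sgce, the epsilon-sarcoglycan of muscle and other membranes, starts 99 bases from Peg10 on the opposite strand of chromosome 6, and the pair is controlled by the imprint between them. Its CPM was 3.60, 4.33, 4.22, 6.11, 7.73 and 7.93 in VDD1 to VDD6 and 5.58, 2.95, 3.78, 2.34, 4.17 and 3.65 in VDS1 to VDS6. As with Peg10, VDD4 to VDD6 were the 3 highest mice, each above every VDS-F1 mouse. In edgeR the log2 fold change was 0.60 ± 0.25 with an adjusted p of 0.263, and voom gave an adjusted p of 0.0488. Ppp1r9a, a maternally expressed neighbour that encodes neurabin, had a log2 fold change of -0.06 ± 0.22.

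**Figure D3:**
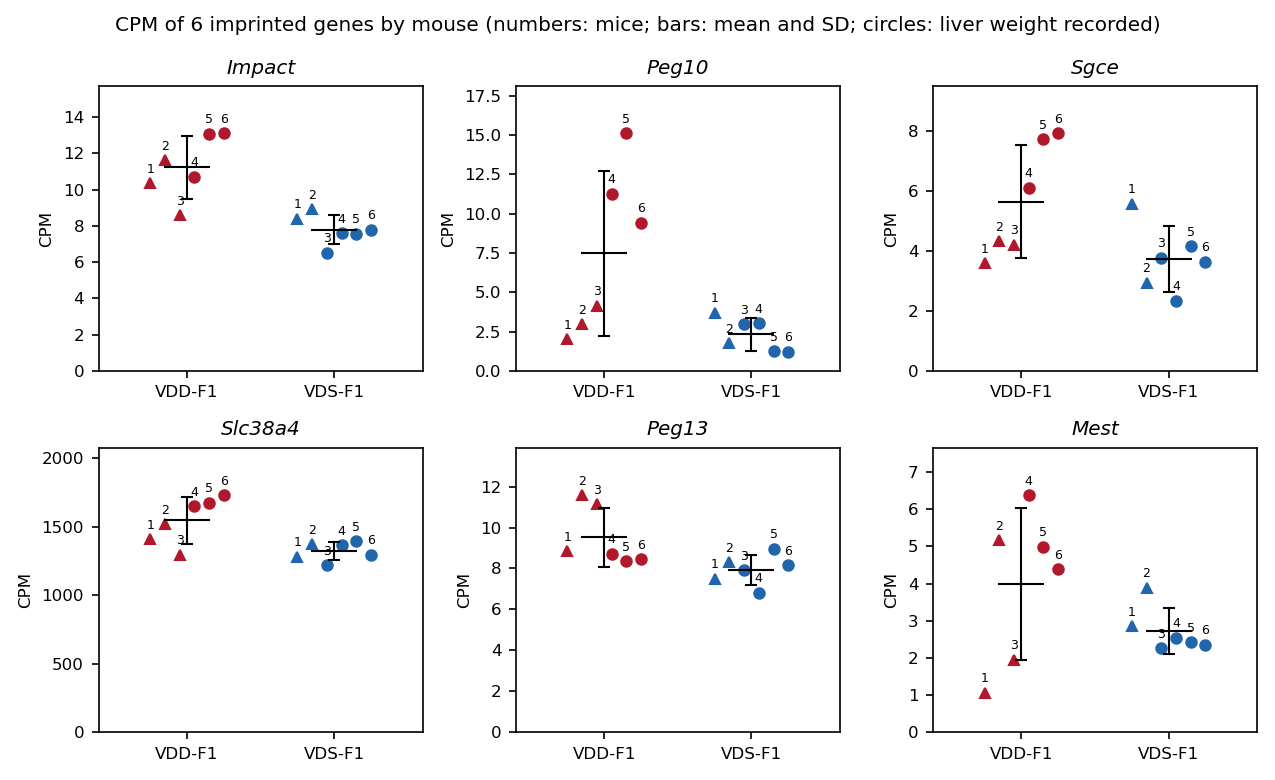
CPM of 6 imprinted genes in each mouse (numbers), with the mean and SD of each group (n = 6), circles for mice with and triangles for mice without a recorded liver weight. Peg10 reaches 9.42 to 15.1 in VDD4 to VDD6 and stays at or under 4.14 in the other 9 mice, while 5 of 6 VDD-F1 mice exceed all VDS-F1 mice for Impact.

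Slc38a4 differed by less in size. Its CPM was 1408, 1519, 1295, 1651, 1677 and 1732 in VDD1 to VDD6 and 1281, 1372, 1222, 1367, 1397 and 1296 in VDS1 to VDS6. Again 5 of 6 VDD-F1 mice lay above the highest VDS-F1 mouse, and VDD3 lay among them. Its log2 fold change was 0.23 ± 0.10 with an adjusted p of 0.271.

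Peg13, a noncoding RNA inside an intron of Trappc9, had 8.84, 11.6, 11.1, 8.72, 8.36 and 8.44 CPM in VDD1 to VDD6 and 7.50, 8.32, 7.90, 6.81, 8.96 and 8.16 CPM in VDS1 to VDS6. VDD2 and VDD3 were the highest and VDS4 was the lowest, and the groups overlapped. The log2 fold change was 0.26 ± 0.12 with an adjusted p of 0.309. It was 0.10 in the mice with a recorded liver weight and 0.41 in the others. Peg13 lies on the same strand as Trappc9, a subunit of a vesicle tethering complex, and unspliced Trappc9 RNA would be counted there. Trappc9 itself had -0.15 ± 0.12.

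Within the sets of mice, the comparison differed. In the 7 mice with a recorded liver weight, edgeR gave an adjusted p under 0.05 for 5 of 29 imprinted genes, where 11% of all genes were called, and 3 of these met the fold change threshold, where 4.3% of all genes did. Peg10 was higher by 2.47 (adjusted p 0.000469), Mest by 1.12 (0.00625), Sgce by 1.07 (0.00924), Impact by 0.74 (0.00617) and Slc38a4 by 0.35 (0.0161), all on the log2 scale. Among the 5 mice that have no such record, 0 of 29 imprinted genes had an unadjusted p under 0.05, where 3.79% of all genes did and 0% had an adjusted p under 0.05. There the log2 fold changes of the same genes were 0.15, -0.29, -0.08, 0.24 and 0.09. Cell markers also differed by edgeR's adjusted p in the 7 mice with a recorded liver weight. There 8 of 12 stellate and fibroblast, 3 of 8 proliferation and 2 of 5 cholangiocyte markers were higher in VDD-F1, of 9 macrophage markers 2 were higher and 4 lower, and of 10 hepatocyte markers 3 were higher and 2 lower. Their part in the result was not tested.

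Mest, a hydrolase-like protein of the mesoderm and of growing fat, changed side between the sets. Its CPM was 1.07, 5.17 and 1.96 in VDD1 to VDD3 and 6.38, 5.0 and 4.38 in VDD4 to VDD6, and in VDS1 to VDS6 it was 2.86, 3.89, 2.27, 2.55, 2.43 and 2.36. VDD1 and VDD3 lay below every VDS-F1 mouse and the other 4 VDD-F1 mice above. Over all 12 mice the log2 fold change was 0.55 ± 0.34 with an adjusted p of 0.459.

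The difference between the sets was tested as an interaction of diet and set in edgeR, a fit chosen after the values by set were seen. No imprinted gene had an adjusted p under 0.05, where 11 of 12453 genes (0.0883%) did, and 6 of 29 had an unadjusted p under 0.05, where 9.01% of all genes did. Peg10 had the smallest p, with a difference between the sets of 2.34 ± 0.59 on the log2 scale and an adjusted p of 0.202. The other 5 were Sgce (1.15), Ddc (0.94), Igf2r (-0.38), Mest (1.40) and Impact (0.50). A liver weight being recorded cannot be told apart from other ways in which these mice may have been handled differently.

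H19 and Igf2 are read from opposite alleles under 1 control region on chromosome 7, and both are shut down in the liver after birth. H19 had 0.126, 2.45, 1.05, 0.549, 0.947 and 0.933 CPM in VDD1 to VDD6, 0 to 1.18 CPM in VDS1 to VDS5 and 32.6 CPM in VDS6. Igf2 had 0.420 to 1.65 CPM in VDD-F1, 0.0590 to 0.893 CPM in VDS1 to VDS5 and 12.8 CPM in VDS6. One mouse therefore held both genes far above the other 11. Among the 12453 genes with the minimum count, 2 (0.0161%) were at least 10 times higher in VDS6 than in the highest of the other 11 mice. They were H19 and Afp, alpha-fetoprotein, the fetal serum protein. Afp had 28.9 CPM in VDS6 and at most 0.979 CPM elsewhere. With 404 counts in VDS6 and 2 to 18 in the other 11 mice, Afp passed the minimum only with VDS6 included. Genes below the minimum were not searched, and Ascl2 among them had counts in VDS6 alone.

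The direction of the comparison in edgeR turned when this mouse was left out. With all mice the log2 fold change of H19 was -2.45 ± 1.28 (adjusted p 0.372) and that of Igf2 -1.51 ± 0.91 (adjusted p 0.440). Without VDS6 they were 1.55 (adjusted p 0.405) and 0.68. DESeq2 gave no adjusted p for either gene.

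**Figure D4:**
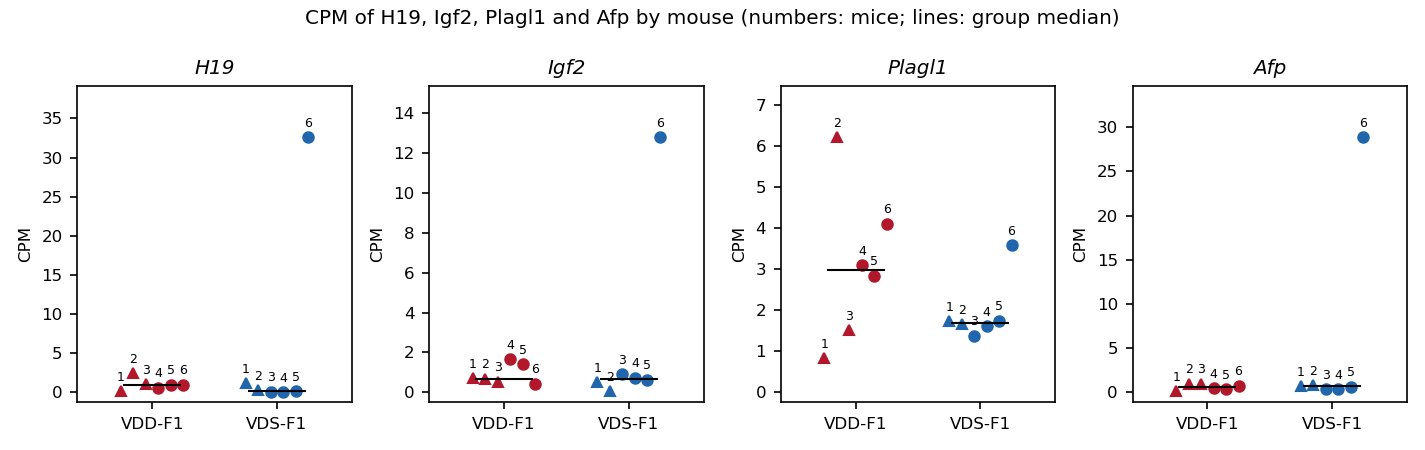
CPM of H19, Igf2, Plagl1 and Afp in each mouse (numbers), with a line at the median of each group (n = 6), circles for mice with and triangles for mice without a recorded liver weight. VDS6 stands at 32.6, 12.8 and 28.9 CPM for H19, Igf2 and Afp, while for Plagl1 its 3.58 CPM lies below VDD2 at 6.21 and VDD6 at 4.10.

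Plagl1, which is known to act on H19, Igf2 and other imprinted genes, did not single out VDS6 in the same way. It had 0.821, 6.21, 1.51, 3.09, 2.84 and 4.10 CPM in VDD1 to VDD6, 1.37 to 1.74 CPM in VDS1 to VDS5 and 3.58 CPM in VDS6. The log2 fold change was 0.69 ± 0.40 with an adjusted p of 0.429. Igf2r, the maternally expressed clearance receptor of IGF2, had 83.9 to 116 CPM in VDD-F1 and 85.6 to 99.3 CPM in VDS-F1, with VDS6 at 85.6, and a log2 fold change of 0.08 ± 0.09.

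In the Kcnq1 domain, the noncoding RNA Kcnq1ot1 was the imprinted gene nearest to an unadjusted p of 0.05 among those lower in VDD-F1. It had a lowest, median and highest CPM of 5.50, 11.5 and 15.5 in VDD-F1 and of 10.1, 14.3 and 18.3 in VDS-F1. The log2 fold change was -0.44 ± 0.21, with an unadjusted p of 0.0526 and an adjusted p of 0.321, and it was -0.45 and -0.46 in the 2 sets of mice. The genes it is known to silence gave -0.12 ± 0.26 for Cdkn1c, -0.01 ± 0.37 for Kcnq1, a potassium channel, and 0.05 ± 0.09 for Slc22a18. Slc22a18 had 91.3 to 125.8 CPM in VDD-F1 and 95.1 to 117 CPM in VDS-F1, so the groups covered nearly the same range.

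The Grb10 domain pairs an insulin receptor adaptor with a decarboxylase. Ddc had 46.4, 39.6 and 65.8 CPM in VDD1 to VDD3 and 131, 179 and 125 CPM in VDD4 to VDD6, and 73.8, 56.7, 115, 114, 66.9 and 95.8 CPM in VDS1 to VDS6. The VDD-F1 mice thus lay at both ends of the range, and the log2 fold change of 0.17 ± 0.33 had an adjusted p of 0.852. In the mice with a recorded liver weight it was 0.57 with an adjusted p of 0.0643, and in the others -0.37. Grb10 had a lowest, median and highest CPM of 3.79, 10.1 and 14.5 in VDD-F1 and of 3.89, 7.84 and 8.87 in VDS-F1, with a log2 fold change of 0.39 ± 0.29.

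The genes of the remaining domains lay between -0.34 and 0.27 on the log2 scale. In the Snrpn domain, Snrpn, a protein of the spliceosome, had -0.34 ± 0.31, Ndn, necdin, 0.18 ± 0.62 and Ube3a -0.04 ± 0.08. Gnas had 332.5 to 399.7 CPM in VDD-F1 and 340.1 to 428.6 CPM in VDS-F1, a log2 fold change of -0.08 ± 0.09. H13 had 106.5 to 138 CPM in VDD-F1 and 126 to 142 CPM in VDS-F1 and -0.15 ± 0.08, and Mcts2, a gene copy inside an intron of H13, had 0.27 ± 0.16. Mcts2 and H13 lie on the same strand, where unspliced H13 RNA would be counted with Mcts2. The abundant genes Slc22a18, Gnas, H13, Igf2r, Ube3a, Copg2 and Blcap had standard errors of 0.08 to 0.13, close to those of Slc38a4 and Impact. Ddc, also abundant, had 0.33.

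Several imprinted genes overlap a partner on the other strand, and the libraries keep the strand. The share of stranded counts on the strand opposite the gene was therefore compared in 4 pairs with an exact two-sided permutation test over all splits of the mice into 6 and 6, where the smallest p is 0.00216. Copg2 ends inside the last exon of Mest and shares 912 exon bases with it. In VDD-F1 its opposite-strand share was 5.85% ± 2.12 (SD, n = 6), against 2.95% ± 1.63 in VDS-F1, with an exact p of 0.0303 and an adjusted p of 0.0693. VDD1 at 2.93% and VDD3 at 3.92% lay inside the VDS-F1 range of 0.714% to 5.01%, and VDD5 was highest at 8.81%. The mice with a recorded liver weight had 6.20% to 8.81% in VDD-F1 and 0.714% to 2.67% in VDS-F1, whereas in the others VDD1 to VDD3 had 2.93%, 6.89% and 3.92% and VDS1 and VDS2 had 5.01% and 4.68%. Mest fragments in the shared bases fall on the strand opposite Copg2, so this share is not a measure separate from Mest. Over Copg2 the opposite strand held 11, 33, 14, 22, 37 and 33 counts in VDD1 to VDD6. In VDS1 to VDS6 it held 22, 20, 9, 12, 3 and 8. Mest itself had 17, 99, 26, 93, 95 and 94 counts in VDD-F1 and 58, 66, 33, 49, 35 and 33 in VDS-F1.

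Igf2r shares a long span, but no exon, with Airn. The opposite strand of the Igf2r exons held 49 counts in all, against 19495 on its own strand. In VDD-F1 the share was 0.387% ± 0.370, against 0.0872% ± 0.0764 in VDS-F1, with an exact p of 0.0346 and an adjusted p of 0.0693. VDD5 with 19 counts was the highest and VDS6 had 0. Other genes were set beside these values. The median opposite-strand share of the 12453 genes was 0.0519% to 1.28% in the VDD-F1 mice and 0% to 0.216% in the VDS-F1 mice, with VDD5 again the highest. The share was higher in VDD-F1 for 74.0% of all genes. Slc38a4, for which no partner was listed, had 0.116% to 0.926% and 0.0258% to 0.213%, and the part of this difference in the Igf2r share was not tested. Summed over all genes, 4.18% to 5.80% of the stranded counts in VDD-F1 and 4.22% to 7.27% in VDS-F1 were on the opposite strand. Airn itself had a mean of 6.67 counts in VDD-F1 and 8 in VDS-F1. For the Copg2 share the part of these values was not tested either. For Kcnq1 against Kcnq1ot1 the exact p was 0.665 and for Blcap against Nnat 0.361, from 10 and 14 opposite-strand counts in all.

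**Figure D5:**
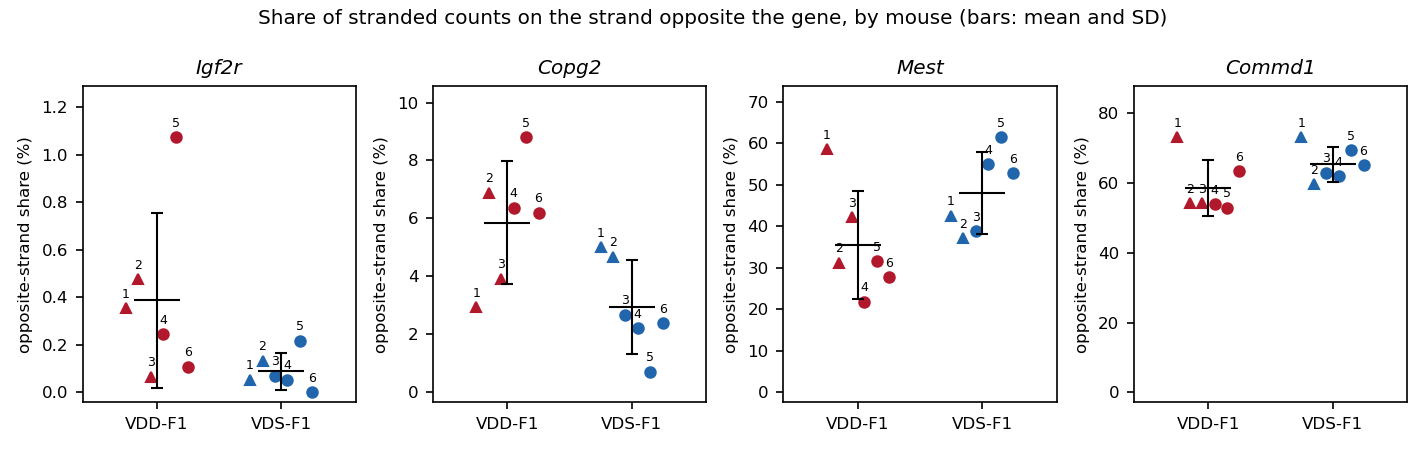
Share of stranded counts (%) on the strand opposite Igf2r, Copg2, Mest and Commd1 in each mouse (numbers), with the mean and SD of each group (n = 6), circles for mice with and triangles for mice without a recorded liver weight. The Copg2 share is 2.93% to 8.81% in VDD-F1 and 0.714% to 5.01% in VDS-F1, and Commd1 exceeds 50% in all mice.

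From the other side, 39.2% of the stranded counts over Mest were on the opposite strand, from 21.8% in VDD4 to 61.5% in VDS5. For Commd1, a protein of copper handling and NF-kappaB signalling, the share was 62.9%, and the opposite strand held more counts in 12 of 12 mice. Zrsr1, a splicing factor gene in an intron of Commd1, shares 412 exon bases with it on that strand. Mest and Commd1 were chosen here after their values were seen and were not tested. A count that ignores the strand changed these genes, and for Commd1 it turned the log2 fold change from 0.13 to -0.03. Without strand Commd1 had 109 counts in VDD1, beside 46 on its own strand. Mest had 84 in VDD2 beside 99, and Gnas had 247 in VDD1 beside 6059.

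A further 38 imprinted genes of the mouse were listed beside the 44, and 21 of them had the minimum count. None had an adjusted p under 0.05 in edgeR, and 2 were higher at an unadjusted p under 0.05, close to the 9.55% of all genes. They were Ano1, a calcium-activated chloride channel, at 0.93 ± 0.22 (adjusted p 0.0905, and 0.0104 in DESeq2), and Dcn, the matrix protein decorin, at 0.39 ± 0.17 (adjusted p 0.266). Dcn also belongs to the stellate cell markers. Pon2, a lactonase, was next with 0.15 ± 0.09. In the mice with a recorded liver weight 3 of the 21 had an adjusted p under 0.05 in edgeR, where 11% of all genes did, namely Dcn at 0.58 (0.00643), Ano1 at 0.81 (0.0385) and, lower in VDD-F1, Smoc1, a secreted matrix protein, at -0.57 (0.000843). In the others the same genes had 0.08, 1.13 and -0.05, and for none of the 3 did the interaction of diet and set have an adjusted p under 0.05 (0.554 to 0.921). Their median log2 fold change was 0.00.

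A network of 15 genes that are co-expressed in growth, all among the 44, had 12 with the minimum count. Of these, Sgce and Slc38a4 were higher at an unadjusted p under 0.05, where 9.55% of all genes were, H19 had the third smallest p, and the median was 0.13. Of 26 genes that write, read or protect imprints, 21 had the minimum count, 3 were higher and 1 was lower at an unadjusted p under 0.05, where 9.55% and 6.29% of all genes were, with a median of 0.01. Uhrf1, which recruits DNMT1 to newly replicated DNA, had 1.96 ± 0.62 (adjusted p 0.151, and 0.0415 in DESeq2), Ehmt1, a histone H3 methyltransferase, -0.27 ± 0.09, Rnf2, a Polycomb ubiquitin ligase, 0.24 ± 0.09 and Ezh2, the Polycomb methyltransferase, 0.46 ± 0.18. Uhrf1 was highest in VDD2, at 4.59 CPM, the mouse with the highest sum of proliferation markers. Its log2 fold change was 1.30 in the mice with a recorded liver weight and 3.84 in the others. Zfp57 stayed below the minimum with a mean of 2.0 counts.

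Among 11 genes of postnatal silencing in the liver, 7 had the minimum count and Afp alone had an unadjusted p under 0.05, at -3.11 ± 1.13, with VDS6 far above the other mice. Afp had 0.126 to 0.979 CPM in VDD-F1, 0.344 to 0.826 CPM in VDS1 to VDS5 and 28.9 CPM in VDS6. Its fold change therefore rests on this 1 mouse. It was -3.81 in the mice with a recorded liver weight, VDS6 among them, and -0.15 in the others. Next in p were Igf2bp2, an RNA-binding protein named for binding Igf2 messenger RNA, at -0.94 ± 0.63, and Zfhx3, a repressor of Afp, at -0.16 ± 0.12. Igf2bp2 had -2.64 in the mice with a recorded liver weight (adjusted p 0.00793) and -0.50 in the others, with an adjusted p of 0.550 for the interaction. Zbtb20 and Zhx2, which hold fetal genes such as Afp and H19 silent in adult liver, had -0.21 ± 0.16 and -0.09 ± 0.09. In the insulin-like growth factor axis, 14 of 14 genes had the minimum count, with a median of -0.02. Igfbp7, a binding protein, had 0.64 ± 0.20 and Irs1, an insulin receptor substrate, -0.34 ± 0.15, both at an unadjusted p under 0.05 and with adjusted p of 0.154 and 0.271. For both of these lists the shares over all genes were again 9.55% higher and 6.29% lower. Igfbp7 had 0.73 in the mice with a recorded liver weight (adjusted p 0.000423) and 0.54 in the others, with an adjusted p of 0.942 for the interaction. Igfals, which holds IGF in the circulation, had -0.34 ± 0.16.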

How the data were processed

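Liver RNA-seq libraries of 12 male mice (KAPA RNA HyperPrep with RiboErase) were analysed from the counts that the authors deposited. Per the study's methods, reads were trimmed and then aligned to mm10 by STAR, which also counted the fragments of each GENCODE M15 gene. The counts were not normalized. The reverse-strand count was used, which held 92.7% to 95.8% of the stranded counts. Fragments that map to several places are not counted, and near-identical gene copies can lose counts. Symbols, positions and exon lengths came from GENCODE M21 on GRCm38, which matched 52489 of 52636 genes. Promoters came from RefSeq.

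Genes were tested from a mean of 12 counts up with edgeR 4.0.16 in R 4.3.3 (TMM, quasi-likelihood, legacy form), where the study used DESeq2. DESeq2 1.42.0 and voom in limma 3.58.1 were alternatives. The fits were tested on simulated counts. CPM carries the TMM scaling. Opposite-strand shares were compared in SciPy 1.17.1 and figures drawn in matplotlib 3.10.9 with Python 3.11.15.

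The 44 genes and all lists were chosen with earlier results of these data known. Values by mouse were given for genes with an unadjusted p under 0.05 and those called by any alternative. Among the 6 highest by TPM, Slc38a4 and Ddc were given by mouse and the others by range. Genes below the minimum with at least 10 counts in a library were given by single counts or ranges. Of the other lists the 3 smallest p-values were named, and marker lists were given by counts and sums. The mice with a recorded liver weight are those in the study's supplement. The interaction fit, a fit in the newer edgeR form and 1 without VDD2 and VDS6 were added after seeing the data.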

Additional observations from a re-analysis of the deposited data

Results flagged for a closer look

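In 5 of 58 groups of 6 mice over the 29 genes (8.62%), 1 mouse stood apart from the other 5 by Dixon's test at the 95% level. That level flags about 1 of 20 groups when values are independent and normally distributed. CPM without logs, of genes that share domains, need not meet this, so the 2 rates cannot be compared. The 5 flagged groups were all in VDS-F1, and in each the flagged mouse was the highest. H19 reached 32.6 CPM in VDS6, where the other 5 VDS-F1 mice had 0 to 1.18, and Igf2 reached 12.8 CPM in VDS6 beside 0.0590 to 0.893. Plagl1 had 3.58 CPM in VDS6 beside 1.37 to 1.74. Mest had 3.89 CPM in VDS2 beside 2.27 to 2.86, and Ndn, a low gene with 0 to 41 counts per library, had 2.02 CPM in VDS1 beside 0 to 0.694. VDS6 is also the library in which 11.1% of fragments overlapped no annotated exon on the counted strand. The part of this in the 3 values was not tested.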

How the results depend on the processing

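Of the 29 genes, 13 kept 1 direction over 25 alternatives. DESeq2 called 1 differentially expressed gene and gave 2 with an adjusted p under 0.05 (Peg10 and Impact). Voom gave 2 (Sgce and Impact) with a median log2 fold change of 0.12. The mice with a recorded liver weight gave 3, 5 and 8 genes (differentially expressed, adjusted and unadjusted p), and the others gave 0 at an unadjusted p under 0.05. With 1 mouse left out these counts ran from 0 to 1, 0 to 2 and 3 to 9, and the median from -0.06 to 0.08. Without VDD1, Peg10 and Impact (adjusted p 0.0314 and 0.039) and without VDD3, Impact (0.036) passed. For the 122 genes tested of the other lists DESeq2 gave 13, where it called 4.05% of all genes, and edgeR 0, where it called 0.0402%. At an unadjusted p under 0.05 edgeR gave 37, where 9.55% of all genes were higher and 6.29% lower.

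The other directions that turned, as log2 fold changes, were as follows. With voom they were H19 2.0, Igf2 0.21, Kcnq1 0.21, Cdkn1c 0.040, Igf2r -0.023 and Blcap 0.0036. In the mice with a recorded liver weight they were Cdkn1c 0.16, Ppp1r9a 0.15, Igf2r -0.12, Ube3a 0.023 and Blcap 0.0086. In the others they were Igf2 1.14, H19 0.76, Kcnq1 0.63, Copg2 0.11, Gnas 0.10, Peg3 0.071, Sgce -0.076, Mest -0.29, Ddc -0.37 and Ndn -0.64. Without strand they were Cdkn1c 0.43, Kcnq1 0.15 and Commd1 -0.031. Without VDD2 and VDS6 they were H19 1.06, Igf2 0.75, Kcnq1 0.35, Cdkn1c 0.036 and Ndn -0.29. Kcnq1 had 0.11 with the set as a covariate and 0.017 in the newer edgeR form. With 1 mouse left out the range was -2.94 to 1.55 for H19, -1.77 to 0.68 for Igf2, -0.19 to 0.35 for Kcnq1, -0.065 to 0.96 for Ndn, -0.098 to 0.33 for Ddc and -0.16 to 0.082 for Ppp1r9a. Leaving out VDS6 turned H19 and Igf2, voom and the replicate block turned them with VDS6 kept, and the cause of the turns was not tested.

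Mice that share a replicate number did not deviate together (r from -0.08 to 0.10, with 0 of 6 correlating best with its own number), so the numbers do not pair them. The fit with a replicate block gave 3 genes at an unadjusted p under 0.05 (Peg10, Kcnq1ot1 and Impact) and 0 at an adjusted p under 0.05, with H19 at 0.39, Igf2 at 0.032, Kcnq1 at 0.13 and Ddc at -0.0047 on the log2 scale. A gene at the minimum has about 12 counts per library, so that its fold change is imprecise.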
